A study of Homo sapiens with 9 samples.

Results

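The mRNAs of 58 genes that act in mitosis and at the kinetochore were followed in HCT116, an established human colorectal carcinoma line. The genes were chosen by name and known role: kinases and cyclins of mitotic entry, the spindle checkpoint, the centromere and kinetochore, spindle motors, the ubiquitin machinery of anaphase, and cytokinesis. The choice set no threshold on a value, but it was made with results of these libraries known, so that counts and medians over the 58 are descriptions. Each of the 58 names matched 1 of the 58735 genes in the table. RNA was sequenced from 3 groups of 3 libraries. The A20-WT group is the wild-type line, the A20-KO group is HCT116 in which the gene of A20 (TNFAIP3), a ubiquitin-editing regulator of NF-kB signaling, was targeted by CRISPR, and the A20-OE group is those A20-KO cells with A20 put back from an expression vector, so that they carry the targeting as well. The guide was delivered by a lentiviral vector with puromycin selection. Neither the labels nor the methods say whether the targeted line is 1 clone, which guide was used, whether A20-WT carried a control vector, or whether the replicates are separate cultures, so that p-values measure only the spread between these libraries. Values are FPKM, a level per kilobase of gene and per library depth.

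Entry into mitosis is driven by CDK1 bound to a B-type cyclin. WEE1 and PKMYT1 hold the kinase back by phosphorylating it, and CDC25 phosphatases release it. The kinetochore, built on centromeric chromatin that contains CENPA, binds microtubules through the NDC80 complex, and unattached kinetochores keep the spindle checkpoint active, which restrains the anaphase-promoting complex and its coactivator CDC20. Anaphase starts when securin and cyclin B are ubiquitinated and separase is freed to cut cohesin, and cytokinesis then divides the cell. Many of these genes are transcribed late in the cell cycle. Their promoters often hold CCAAT boxes, bound by NF-Y, and a cell-cycle homology region, through which the DREAM complex represses them in resting cells and the MuvB core with MYBL2 and FOXM1 activates them in G2. In a line such as HCT116 their summed mRNA therefore follows both the share of cells in G2 and mitosis and the amount made per cell.

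The promoters of 5 genes that fell are printed with that of CDC25B, the 1 gene of the set that rose, so that the elements can be compared. They are RefSeq sequences of GRCh38.p14 from 250 bases before to 50 bases after the start, read 5′ to 3′ on the strand of the gene. The capitals mark TTTGAA (the form of the cell-cycle homology region searched for) and CCAAT on either strand, TTCAAA being the reverse complement of the first. Other forms of that region were not searched for, so a promoter without TTTGAA may still hold one. CDK1 has 2 starts in the reference table and CDC25B has 4, and the first listed is shown.
CCNB1 (chr5:69166900-69167199, plus strand): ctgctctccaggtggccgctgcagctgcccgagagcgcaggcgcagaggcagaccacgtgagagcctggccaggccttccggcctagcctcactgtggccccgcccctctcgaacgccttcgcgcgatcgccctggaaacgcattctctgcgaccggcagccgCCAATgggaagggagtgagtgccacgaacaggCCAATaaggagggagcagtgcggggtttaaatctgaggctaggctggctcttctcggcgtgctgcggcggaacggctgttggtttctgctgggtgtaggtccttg
CCNB2 (chr15:59104896-59105195, plus strand): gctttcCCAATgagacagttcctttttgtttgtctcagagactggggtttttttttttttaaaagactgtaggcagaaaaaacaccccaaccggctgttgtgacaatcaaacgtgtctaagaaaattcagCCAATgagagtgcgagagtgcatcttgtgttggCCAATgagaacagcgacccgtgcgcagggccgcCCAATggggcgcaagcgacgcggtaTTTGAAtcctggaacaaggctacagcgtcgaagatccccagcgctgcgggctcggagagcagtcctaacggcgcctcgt
CDK1 (chr10:60778081-60778380, plus strand): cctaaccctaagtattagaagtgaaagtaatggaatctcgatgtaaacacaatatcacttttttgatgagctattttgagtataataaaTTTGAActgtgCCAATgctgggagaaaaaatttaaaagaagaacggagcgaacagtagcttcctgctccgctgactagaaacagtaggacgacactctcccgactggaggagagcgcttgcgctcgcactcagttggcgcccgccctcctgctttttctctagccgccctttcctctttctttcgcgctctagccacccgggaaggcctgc
PLK1 (chr16:23678639-23678938, plus strand): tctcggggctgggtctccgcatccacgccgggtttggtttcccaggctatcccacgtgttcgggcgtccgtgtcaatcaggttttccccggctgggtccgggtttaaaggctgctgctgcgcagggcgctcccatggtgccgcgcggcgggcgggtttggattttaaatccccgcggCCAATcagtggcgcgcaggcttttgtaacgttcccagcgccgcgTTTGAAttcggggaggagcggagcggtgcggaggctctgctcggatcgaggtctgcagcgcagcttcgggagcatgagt
CDC20 (chr1:43358731-43359030, plus strand): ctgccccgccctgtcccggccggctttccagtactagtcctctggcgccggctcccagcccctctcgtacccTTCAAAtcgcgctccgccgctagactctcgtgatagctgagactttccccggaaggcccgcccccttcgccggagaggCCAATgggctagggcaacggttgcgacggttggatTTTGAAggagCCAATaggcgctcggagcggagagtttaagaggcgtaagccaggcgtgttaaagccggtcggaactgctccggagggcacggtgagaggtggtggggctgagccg
CDC25B (chr20:3786701-3787000, plus strand): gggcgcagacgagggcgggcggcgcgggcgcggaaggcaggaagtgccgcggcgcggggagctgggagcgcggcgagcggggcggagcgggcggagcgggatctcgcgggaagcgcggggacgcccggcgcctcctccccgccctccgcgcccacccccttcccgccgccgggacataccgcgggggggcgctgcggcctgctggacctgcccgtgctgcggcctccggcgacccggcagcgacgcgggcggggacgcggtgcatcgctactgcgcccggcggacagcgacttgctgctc

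In the CCNB2 and PLK1 promoters TTTGAA began 29 bases before the start, downstream of the nearest CCAAT, which began 54 bases before it in CCNB2 and 73 bases before it in PLK1. CDC20 held TTTGAA 65 bases before the start between a pair of CCAAT boxes, and its reverse complement 178 bases before the start. CCNB1 held CCAAT 87 and 55 bases before the start and no TTTGAA, and the printed CDC25B window held neither motif. Of the 4 listed CDC25B promoters, 2 held CCAAT and 0 held TTTGAA. In the printed CDK1 window TTTGAA began 161 bases and CCAAT 150 bases before the start, the opposite order to CCNB2 and PLK1. Both of the 2 listed CDK1 promoters held TTTGAA and CCAAT. Their order in the second was not read, so this order belongs to the start shown. None of the matches in the printed windows overlapped another (0 of 6 promoters). Promoters were found for 47 of the 58 genes. TPX2, BUB3, BIRC5, PKMYT1, WEE1, CENPM, TTK, AURKA, FOXM1, UBE2C and RACGAP1 were not matched. At least 1 listed promoter held TTTGAA in 32 of the 47 (68.1%), against 18.2% of the 27305 genes in the reference table. CCAAT was found in 39 (83.0%, against 39.7% of all), and both motifs in 27 (57.4%, against 8.37%). A match is a string of letters, not a bound site, and the shares were not tested. The 32 genes with TTTGAA had a median log2 fold change of -0.76 in A20-KO against A20-WT and -0.26 in A20-OE against A20-KO, and the 15 without it had -0.55 and -0.49. In A20-OE against A20-WT the medians were -1.06 with it and -1.07 without it, and these differences were not tested.

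The targeted gene was examined first. TNFAIP3, which encodes A20, stood at 0.869, 0.800 and 0.736 FPKM in A20-WT. For TNFAIP3 the libraries labelled A20-KO had 1.93, 2.16 and 1.04 FPKM and A20-OE had 58.7, 66.5 and 56.5 FPKM. The A20-KO label was thus not matched by a lower mRNA. By limma the TNFAIP3 mRNA rose by 0.95 on the log2 scale (SE 0.23, adjusted p = 0.018) in A20-KO against A20-WT. It rose by 5.13 on the log2 scale (SE 0.23, adjusted p = 2.1e-05) in A20-OE against A20-KO. In A20-OE against A20-WT it rose by 6.07 (SE 0.23, adjusted p = 2.0e-06), so that A20-OE stood far above the wild-type level. The call in A20-KO against A20-WT was lost in a fit of the 2 groups alone (adjusted p = 0.083) and in 3 of 9 fits with 1 library left out (adjusted p from 0.054 to 0.070), without A20-KO replicate 1, A20-KO replicate 2 or A20-WT replicate 2. For each comparison the p of an exact permutation test (two-sided) was 0.1, and 3 libraries against 3 allow none smaller. The reads count mRNA and not protein, and the direction of the label cannot be checked from them, so the group is written as the libraries labelled A20-KO wherever its values are given. The paper shows an A20 level for its knockout cells and for those with A20 put back, in a figure whose values were not used here. Each library held 23406222 to 24963691 reads recovered from the FPKM, and each of the 9 resembled a library of its own group most. Mitochondrial genes took 7.52 to 10.1% of the reads in A20-WT, 9.18 to 11.9% in the libraries labelled A20-KO and 12 to 14% in A20-OE. Of 9 markers of colorectal epithelium, EPCAM (96 to 140.3 FPKM), CDH1, KRT8, KRT18, KRT19, CDX2 and KRT20 were present, while VIL1 and CEACAM5 were below 0.1 FPKM in every library. The summed level of these 9 was 1093 to 1472 FPKM in A20-WT, 1701 to 2245 in the libraries labelled A20-KO and 1690.4 to 2235 in A20-OE. Of 8 markers of leukocytes, endothelium and fibroblasts, 7 stayed below 0.3 FPKM, with PTPRC at no more than 0.0220, and COL1A1 ran from 4.55 to 14.9 FPKM. Their sum was 4.75 to 5.97 FPKM in A20-WT, 12.8 to 15.3 in the libraries labelled A20-KO and 11.4 to 12.6 in A20-OE. The part of these shifts in the results was not tested.

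Most of the mitotic genes were lower than in A20-WT in both other groups. From A20-WT to the libraries labelled A20-KO, where the targeted mRNA was not reduced, 45 of the 58 fell, 1 rose and 12 did not pass an adjusted p of 0.05 by limma. Over the 21636 genes tested, 11.0% were called lower and 11.3% higher. From these to A20-OE, 17 of the 58 fell and 41 did not pass, against 4.54% of all genes called lower and 4.43% called higher. None of the 58 rose in that comparison by limma, none did at an unadjusted p under 0.05, and none did by limma-voom on recovered reads, adjusted or not. In A20-OE against A20-WT, 54 fell, 1 rose and 3 did not pass, against 15.4% and 15.7% of all genes. The counts of the role groups below are to be read beside these shares of all genes, and were not tested against them. Fewer cells in G2 and mitosis and less of these mRNAs per cell cannot be told apart in such libraries. The paper reports that proliferation of colorectal cancer cells in culture was not changed by the A20 level. Its text does not say whether the cells of these 3 groups were the ones assayed, and proliferation was not measured by these libraries.

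The median log2 fold change of the 58 was -0.73 in A20-KO against A20-WT, -0.33 in A20-OE against A20-KO and -1.07 in A20-OE against A20-WT, where the medians over all genes tested were -0.01, 0.01 and 0.03. Taken as a share of each library, the 58 genes held 0.772, 0.719 and 0.714% of the recovered reads in A20-WT. The share was 0.476, 0.481 and 0.460% where the label is A20-KO and 0.346, 0.363 and 0.350% for A20-OE. The 3 groups did not overlap in this share. With an absolute log2 fold change above 1 required as well, 6 genes fell in A20-KO against A20-WT (BUB1B, CENPI, CENPK, NDC80, KIF11 and KIF20B), 1 in A20-OE against A20-KO (CENPM) and 34 in A20-OE against A20-WT, against 2.08%, 0.832% and 4.21% of all genes called lower by that rule. Every A20-WT library stood above every library labelled A20-KO for 49 of the 58 genes (18.9% of all genes tested), and every library labelled A20-KO above every A20-OE library for 36 (18.0% of all). Both held for 32 genes, against 4.36% of all genes, an order that was looked for after the values were seen. The count in A20-OE against A20-KO depended on single libraries and on GC content: it was 5 without A20-OE replicate 1, 5 without A20-OE replicate 2, 7 without A20-KO replicate 1, 11 without A20-KO replicate 2, 8 without A20-KO replicate 3 and 32 after correction for GC content.

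**Figure D1:**
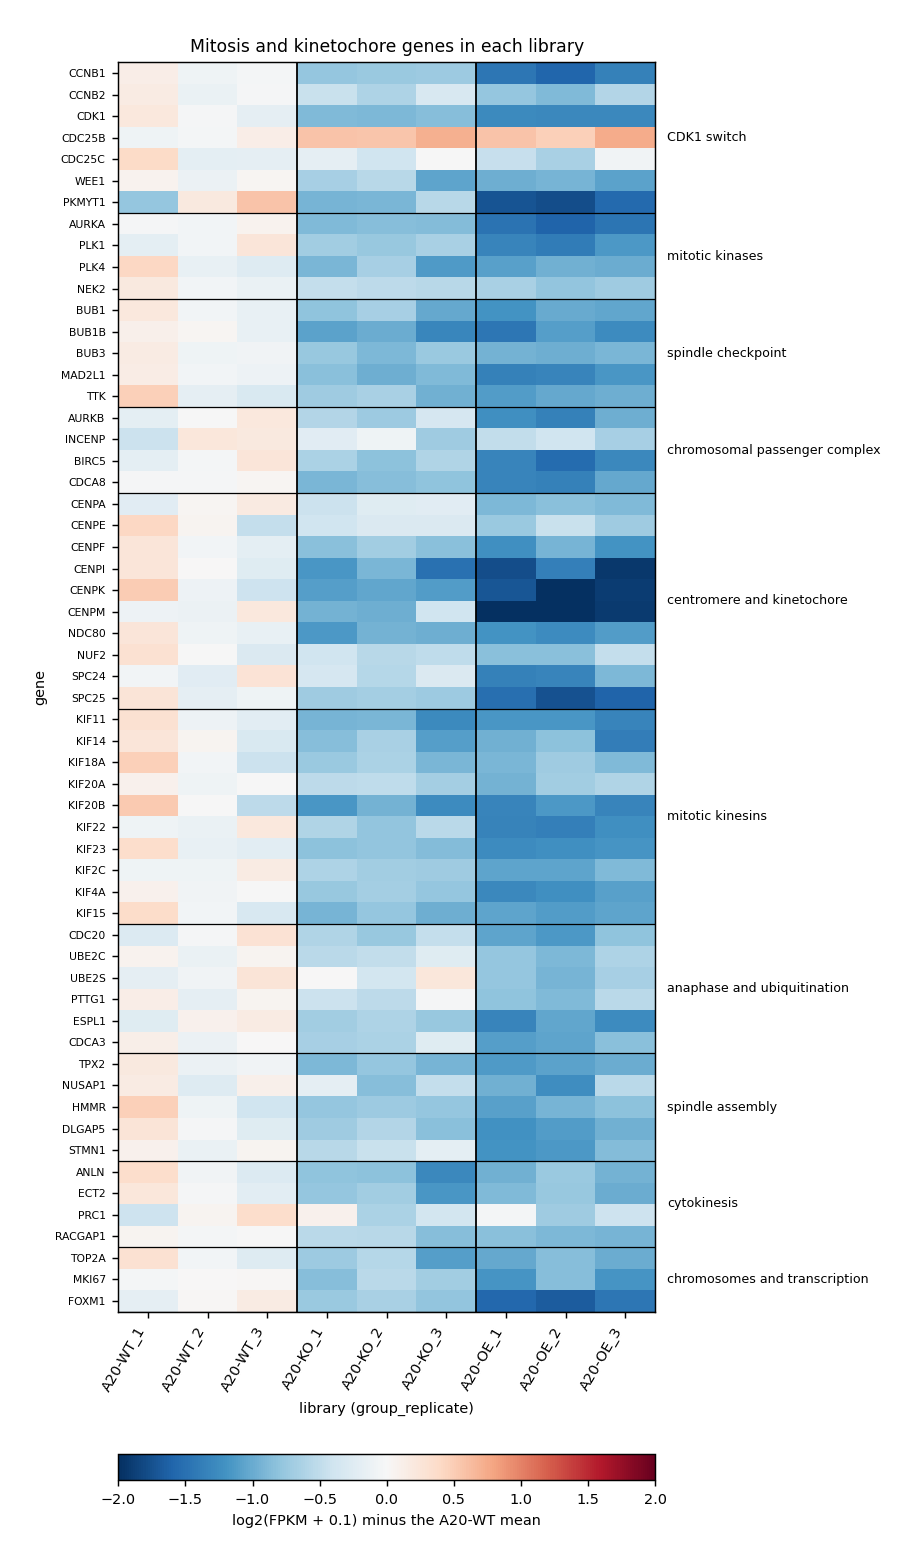
Heat map of the 58 genes (rows, by role) in the 9 libraries (columns), each cell the log2(FPKM + 0.1) minus the mean of the 3 A20-WT libraries, blue for lower and red for higher. In most rows A20-OE is a deeper blue than the libraries labelled A20-KO, and CDC25B is the 1 row that is red in all 6 libraries outside A20-WT.

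CDK1 and its regulators were lower in A20-OE than in A20-WT with the exception of CDC25B and CDC25C. Of these 7 genes, 4 fell in A20-KO against A20-WT, 2 in A20-OE against A20-KO and 5 in A20-OE against A20-WT. CCNB1, the main mitotic cyclin, on chromosome 5 from 69167010 to 69178245, plus strand, had 104, 89.3 and 92 FPKM in A20-WT. CCNB1 levels were 55.3, 56.4 and 57.2 FPKM where the label is A20-KO and 34.8, 31.4 and 37.2 FPKM in A20-OE. CCNB1 fell by 0.75 on the log2 scale (SE 0.10, adjusted p = 0.0011) in A20-KO against A20-WT and fell by 0.71 on the log2 scale (SE 0.10, adjusted p = 0.0047) in A20-OE against A20-KO by limma. Relative to A20-WT its fitted level was 0.594 in the libraries labelled A20-KO and 0.363 in A20-OE. CDK1, its kinase, on chromosome 10 from 60778331 to 60794852, plus strand, was measured at 48.7, 41.4 and 37.2 FPKM in A20-WT. CDK1 was at 22.9, 22.7 and 23.2 FPKM in the libraries labelled A20-KO, and at 17.4, 17.2 and 17.3 FPKM in A20-OE. CDK1 fell by 0.88 on the log2 scale (SE 0.10, adjusted p = 0.00071) in A20-KO against A20-WT and fell by 0.40 on the log2 scale (SE 0.10, adjusted p = 0.043) in A20-OE against A20-KO by limma. For CCNB1 and CDK1 the 3 groups did not overlap, and the 3 A20-OE libraries lay lowest. CCNB2, the second B-type cyclin, stood at 29.8, 24.1 and 26.2 FPKM in A20-WT. For CCNB2 the libraries labelled A20-KO had 19.5, 17.3 and 21.4 FPKM and A20-OE had 15.5, 14.3 and 17.8 FPKM. CCNB2 fell by 0.46 on the log2 scale (adjusted p = 0.027) in A20-KO against A20-WT and missed the threshold in A20-OE against A20-KO (log2 difference -0.29, adjusted p = 0.18) by limma. The CCNB2 ranges of A20-OE and of the libraries labelled A20-KO overlapped, and both lay below A20-WT. Of the 9 fits that leave out 1 library, the call was lost in A20-KO against A20-WT for CCNB2 in 4 (adjusted p up to 0.085, without A20-KO replicate 2) and in A20-OE against A20-KO for CDK1 in 7 (adjusted p up to 0.13, without A20-OE replicate 2).

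Of the inhibitory kinases, both fell in A20-OE against A20-WT. WEE1, which phosphorylates CDK1 in the nucleus, had 7.90, 6.94 and 7.71 FPKM in A20-WT. WEE1 levels were 4.72, 5.09 and 3.55 FPKM where the label is A20-KO and 3.76, 3.90 and 3.54 FPKM in A20-OE. WEE1 fell by 0.76 on the log2 scale (adjusted p = 0.0054) in A20-KO against A20-WT and missed the threshold in A20-OE against A20-KO (log2 difference -0.23, adjusted p = 0.33) by limma. WEE1 fell by 0.99 on the log2 scale (adjusted p = 0.00082) in A20-OE against A20-WT. WEE1 was separate from A20-WT in both other groups, which overlapped each other. PKMYT1, the membrane-bound inhibitory kinase of CDK1, was measured at 12.5, 24.6 and 31.7 FPKM in A20-WT. PKMYT1 was at 11.2, 11.3 and 14.4 FPKM in the libraries labelled A20-KO, and at 6.40, 6.20 and 7.19 FPKM in A20-OE. PKMYT1 missed the threshold in A20-KO against A20-WT (log2 difference -0.80, adjusted p = 0.079) and missed the threshold in A20-OE against A20-KO (log2 difference -0.88, adjusted p = 0.095) by limma. PKMYT1 fell by 1.68 on the log2 scale (adjusted p = 0.0023) in A20-OE against A20-WT. A20-WT replicate 1 stood well under the other A20-WT libraries for PKMYT1, the gene of highest GC content in the set at 66.2%. Of the phosphatases CDC25B rose and CDC25C passed in no comparison. CDC25B, the phosphatase that starts CDK1 activation, on chromosome 20 from 3786772 to 3806121, plus strand, named after its values were seen, stood at 43.7, 45 and 51 FPKM in A20-WT. For CDC25B the libraries labelled A20-KO had 68.8, 68.3 and 76.1 FPKM and A20-OE had 68.9, 64.4 and 77.4 FPKM. CDC25B rose by 0.61 on the log2 scale (SE 0.10, adjusted p = 0.0040) in A20-KO against A20-WT and missed the threshold in A20-OE against A20-KO (log2 difference -0.02, SE 0.10, adjusted p = 0.94) by limma. CDC25B rose by 0.59 on the log2 scale (SE 0.10, adjusted p = 0.0027) in A20-OE against A20-WT. All 6 libraries outside A20-WT were above all 3 of A20-WT for CDC25B. CDC25C, which amplifies the activation, ran from 3.49 to 7.20 FPKM over the 9 libraries, with log2 fold changes of -0.19, -0.20 and -0.39.

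All 4 mitotic kinases of spindle and centrosome fell in A20-KO against A20-WT (4 of 4) and in A20-OE against A20-WT (4), and 2 fell in A20-OE against A20-KO. AURKA, which matures centrosomes and builds the spindle, on chromosome 20 from 56369389 to 56392337, minus strand, had 28.5, 27.9 and 30.5 FPKM in A20-WT. AURKA levels were 15.7, 16 and 15.8 FPKM where the label is A20-KO and 10.3, 9.50 and 10.5 FPKM in A20-OE. AURKA fell by 0.86 on the log2 scale (SE 0.08, adjusted p = 0.00028) in A20-KO against A20-WT and fell by 0.65 on the log2 scale (SE 0.08, adjusted p = 0.0034) in A20-OE against A20-KO by limma. In A20-OE the fitted AURKA level was 0.351 of that in A20-WT. PLK1, which acts from mitotic entry to cytokinesis, on chromosome 16 from 23677656 to 23690367, plus strand, was measured at 34.8, 38.4 and 47.2 FPKM in A20-WT. PLK1 was at 24.6, 23.6 and 25.4 FPKM in the libraries labelled A20-KO, and at 15.9, 15 and 18 FPKM in A20-OE. PLK1 fell by 0.70 on the log2 scale (SE 0.12, adjusted p = 0.0045) in A20-KO against A20-WT and fell by 0.59 on the log2 scale (SE 0.12, adjusted p = 0.023) in A20-OE against A20-KO by limma. The groups were separate for AURKA and PLK1, with little spread within the libraries labelled A20-KO. PLK4, which licenses centriole duplication, stood at 12.2, 8.20 and 7.66 FPKM in A20-WT. For PLK4 the libraries labelled A20-KO had 4.79, 5.73 and 4.12 FPKM and A20-OE had 4.25, 4.66 and 4.53 FPKM. PLK4 fell by 0.90 on the log2 scale (adjusted p = 0.0084) in A20-KO against A20-WT and missed the threshold in A20-OE against A20-KO (log2 difference -0.11, adjusted p = 0.76) by limma. PLK4 fell by 1.01 on the log2 scale (adjusted p = 0.0030) in A20-OE against A20-WT. NEK2, which separates centrosomes before mitosis, had 19.7, 16.6 and 15.7 FPKM in A20-WT. NEK2 levels were 12.3, 11.9 and 11.7 FPKM where the label is A20-KO and 11, 9.90 and 10.5 FPKM in A20-OE. NEK2 fell by 0.52 on the log2 scale (adjusted p = 0.0070) in A20-KO against A20-WT and missed the threshold in A20-OE against A20-KO (log2 difference -0.19, adjusted p = 0.28) by limma. NEK2 fell by 0.72 on the log2 scale (adjusted p = 0.00089) in A20-OE against A20-WT. PLK4 and NEK2 passed in A20-KO against A20-WT and not in A20-OE against A20-KO; the 2 comparisons share the libraries labelled A20-KO, and their difference was not tested. In the fits with 1 library left out the call was lost in A20-OE against A20-KO for PLK1 in 5 (adjusted p up to 0.098, without A20-OE replicate 2).

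The spindle checkpoint genes fell in 5 of 5 cases in A20-KO against A20-WT and in 5 of 5 in A20-OE against A20-WT. Over all genes tested, 11.0% and 15.4% were called lower there. In A20-OE against A20-KO 1 of the 5 fell, against 4.54% of all genes, and so small a count was not tested against that share. BUB1, a kinase that recruits the checkpoint to kinetochores, was measured at 27.9, 23.2 and 21.9 FPKM in A20-WT. BUB1 was at 13.8, 15.2 and 11.9 FPKM in the libraries labelled A20-KO, and at 10.6, 12 and 11.7 FPKM in A20-OE. BUB1 fell by 0.83 on the log2 scale (adjusted p = 0.0023) in A20-KO against A20-WT and missed the threshold in A20-OE against A20-KO (log2 difference -0.25, adjusted p = 0.26) by limma. BUB1B, which as BUBR1 inhibits CDC20, stood at 23.2, 22.3 and 19.5 FPKM in A20-WT. For BUB1B the libraries labelled A20-KO had 10.3, 10.8 and 8.69 FPKM and A20-OE had 7.88, 10.03 and 8.97 FPKM. BUB1B fell by 1.12 on the log2 scale (SE 0.13, adjusted p = 0.00060) in A20-KO against A20-WT and missed the threshold in A20-OE against A20-KO (log2 difference -0.15, SE 0.13, adjusted p = 0.51) by limma. A20-WT was separate from both other groups for BUB1 and BUB1B, and those 2 groups overlapped. BUB3, their common partner, had 39.2, 32.7 and 33.1 FPKM in A20-WT. BUB3 levels were 20.7, 18.7 and 20.7 FPKM where the label is A20-KO and 18.1, 17.7 and 18.6 FPKM in A20-OE. BUB3 fell by 0.80 on the log2 scale (adjusted p = 0.00081) in A20-KO against A20-WT and missed the threshold in A20-OE against A20-KO (log2 difference -0.14, adjusted p = 0.40) by limma. MAD2L1, the MAD2 protein that captures CDC20, was measured at 23.7, 20.54 and 19.7 FPKM in A20-WT. MAD2L1 was at 11.9, 10.8 and 11.5 FPKM in the libraries labelled A20-KO, and at 8.28, 8.41 and 9.45 FPKM in A20-OE. MAD2L1 fell by 0.89 on the log2 scale (adjusted p = 0.00063) in A20-KO against A20-WT and fell by 0.39 on the log2 scale (adjusted p = 0.048) in A20-OE against A20-KO by limma. TTK, the MPS1 kinase at the head of the pathway, stood at 22.9, 14.5 and 13.2 FPKM in A20-WT. For TTK the libraries labelled A20-KO had 9.92, 10.4 and 8.35 FPKM and A20-OE had 7.52, 7.96 and 8.25 FPKM. TTK fell by 0.77 on the log2 scale (adjusted p = 0.019) in A20-KO against A20-WT and missed the threshold in A20-OE against A20-KO (log2 difference -0.27, adjusted p = 0.43) by limma. For BUB3, MAD2L1 and TTK the groups descended without overlap, although for BUB3 and TTK the lowest library labelled A20-KO and the highest of A20-OE were close. Over the 9 fits with a library left out, the call was lost in A20-KO against A20-WT for TTK in 2 (adjusted p up to 0.070, without A20-KO replicate 3) and in A20-OE against A20-KO for MAD2L1 in 7 (adjusted p up to 0.16, without A20-OE replicate 1).

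Of the chromosomal passenger complex, which corrects faulty attachments and guides cytokinesis, 3 of 4 genes fell in A20-KO against A20-WT, 2 in A20-OE against A20-KO and 3 in A20-OE against A20-WT. AURKB, its kinase, had 34.8, 39.4 and 46 FPKM in A20-WT. AURKB levels were 26.4, 24.1 and 31.4 FPKM where the label is A20-KO and 17, 15.5 and 20.1 FPKM in A20-OE. AURKB fell by 0.55 on the log2 scale (SE 0.15, adjusted p = 0.026) in A20-KO against A20-WT and fell by 0.63 on the log2 scale (SE 0.15, adjusted p = 0.033) in A20-OE against A20-KO by limma. BIRC5, the survivin subunit, was measured at 50.2, 55.9 and 68 FPKM in A20-WT. BIRC5 was at 36.9, 32.6 and 37.8 FPKM in the libraries labelled A20-KO, and at 22.9, 19.7 and 23.4 FPKM in A20-OE. BIRC5 fell by 0.69 on the log2 scale (SE 0.13, adjusted p = 0.0059) in A20-KO against A20-WT and fell by 0.70 on the log2 scale (SE 0.13, adjusted p = 0.015) in A20-OE against A20-KO by limma. CDCA8, the borealin subunit, stood at 30.7, 30.8 and 32 FPKM in A20-WT. For CDCA8 the libraries labelled A20-KO had 16.5, 17.2 and 17.7 FPKM and A20-OE had 12.4, 12.1 and 15.3 FPKM. CDCA8 fell by 0.86 on the log2 scale (adjusted p = 0.00079) in A20-KO against A20-WT and missed the threshold in A20-OE against A20-KO (log2 difference -0.37, adjusted p = 0.055) by limma. Each of AURKB, BIRC5 and CDCA8 was in 3 separate descending groups. With single libraries left out (9 fits) the call was lost in A20-KO against A20-WT for AURKB in 4 (adjusted p up to 0.084, without A20-KO replicate 2) and in A20-OE against A20-KO for AURKB in 5 (adjusted p up to 0.13, without A20-OE replicate 2) and for BIRC5 in 4 (adjusted p up to 0.069, without A20-OE replicate 2). INCENP, the scaffold of the complex, passed in no comparison, with log2 fold changes of -0.34, -0.18 and -0.52 and an adjusted p of 0.087 in A20-OE against A20-WT.

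The centromere and kinetochore genes held the largest falls of the set. Of 10, 6 fell in A20-KO against A20-WT, 4 in A20-OE against A20-KO and all 10 in A20-OE against A20-WT, where 7 also passed the fold threshold. CENPM, a subunit of the constitutive centromere network, on chromosome 22 from 41938721 to 41947164, minus strand, had 15.6, 15.3 and 19.3 FPKM in A20-WT. CENPM levels were 8.56, 8.37 and 12.6 FPKM where the label is A20-KO and 3.10, 3.22 and 4.33 FPKM in A20-OE. CENPM fell by 0.78 on the log2 scale (SE 0.19, adjusted p = 0.018) in A20-KO against A20-WT and fell by 1.43 on the log2 scale (SE 0.19, adjusted p = 0.0042) in A20-OE against A20-KO by limma. CENPM fell by 2.21 on the log2 scale (SE 0.19, adjusted p = 6.2e-05) in A20-OE against A20-WT. CENPM was the 1 gene of the 58 past both thresholds in A20-OE against A20-KO, and its fitted level in A20-OE was 0.216 of that in A20-WT. CENPK, a subunit of the same network, was measured at 5.56, 3.62 and 2.89 FPKM in A20-WT. CENPK was at 1.75, 1.83 and 1.73 FPKM in the libraries labelled A20-KO, and at 1.12, 0.822 and 0.969 FPKM in A20-OE. CENPK fell by 1.09 on the log2 scale (SE 0.22, adjusted p = 0.0086) in A20-KO against A20-WT and missed the threshold in A20-OE against A20-KO (log2 difference -0.81, SE 0.22, adjusted p = 0.055) by limma. CENPI, another, stood at 4.98, 4.21 and 3.56 FPKM in A20-WT. For CENPI the libraries labelled A20-KO had 1.82, 2.18 and 1.43 FPKM and A20-OE had 1.16, 1.58 and 1.04 FPKM. CENPI fell by 1.19 on the log2 scale (SE 0.21, adjusted p = 0.0043) in A20-KO against A20-WT and missed the threshold in A20-OE against A20-KO (log2 difference -0.49, SE 0.21, adjusted p = 0.18) by limma. CENPM and CENPK were in 3 separate groups, and for CENPI the libraries labelled A20-KO and those of A20-OE overlapped. CENPK and CENPI were low in A20-OE, with 88 to 595 reads per library for CENPK and 103 to 534 for CENPI over the 9 libraries. CENPF, a large protein of the outer kinetochore, had 26.6, 21.6 and 19.5 FPKM in A20-WT. CENPF levels were 12.6, 13.7 and 12.5 FPKM where the label is A20-KO and 9.47, 11.7 and 9.72 FPKM in A20-OE. CENPF fell by 0.79 on the log2 scale (adjusted p = 0.0037) in A20-KO against A20-WT and missed the threshold in A20-OE against A20-KO (log2 difference -0.33, adjusted p = 0.16) by limma. Leaving out 1 library in each of 9 fits, the call was lost in A20-KO against A20-WT for CENPM in 3 (adjusted p up to 0.071, without A20-KO replicate 1).

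All 4 subunits of the NDC80 complex, which grips the microtubule, fell in A20-OE against A20-WT. NDC80 was measured at 14.8, 11.7 and 11.3 FPKM in A20-WT. NDC80 was at 5.61, 6.42 and 6.30 FPKM in the libraries labelled A20-KO, and at 5.41, 5.19 and 5.69 FPKM in A20-OE. NDC80 fell by 1.02 on the log2 scale (SE 0.12, adjusted p = 0.00075) in A20-KO against A20-WT and missed the threshold in A20-OE against A20-KO (log2 difference -0.17, SE 0.12, adjusted p = 0.43) by limma. SPC25 stood at 19.4, 14.4 and 15.4 FPKM in A20-WT. For SPC25 the libraries labelled A20-KO had 9.86, 10.1 and 9.81 FPKM and A20-OE had 5.65, 4.77 and 5.30 FPKM. SPC25 fell by 0.71 on the log2 scale (SE 0.12, adjusted p = 0.0041) in A20-KO against A20-WT and fell by 0.91 on the log2 scale (SE 0.12, adjusted p = 0.0044) in A20-OE against A20-KO by limma. SPC24 had 10.3, 9.13 and 13 FPKM in A20-WT. SPC24 levels were 8.45, 7.18 and 8.72 FPKM where the label is A20-KO and 4.16, 4.23 and 5.72 FPKM in A20-OE. SPC24 missed the threshold in A20-KO against A20-WT (log2 difference -0.40, SE 0.17, adjusted p = 0.12) and fell by 0.79 on the log2 scale (SE 0.17, adjusted p = 0.025) in A20-OE against A20-KO by limma. NDC80 passed in A20-KO against A20-WT, SPC24 in A20-OE against A20-KO and SPC25 in both, and these differences between genes and between comparisons were not tested. The SPC24 call depended on libraries, and it was lost in A20-OE against A20-KO in 4 of 9 fits with 1 left out (adjusted p up to 0.11, without A20-OE replicate 2). The groups were separate for SPC24 and SPC25, and NDC80 overlapped between A20-OE and the libraries labelled A20-KO. NUF2, which pairs with NDC80, fell in A20-OE against A20-WT by 0.72 on the log2 scale (adjusted p = 0.0090 by limma) and in neither step alone, and CENPE, a kinetochore motor, fell there by 0.63 (adjusted p = 0.044). CENPA, the histone H3 variant that marks the centromere, fell by 0.57 in A20-OE against A20-KO (adjusted p = 0.022 by limma). Its log2 fold change in A20-KO against A20-WT was -0.30 (adjusted p = 0.099). Calls lost with 1 library left out are not given for NUF2, CENPE and CENPA.

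**Figure D2:**
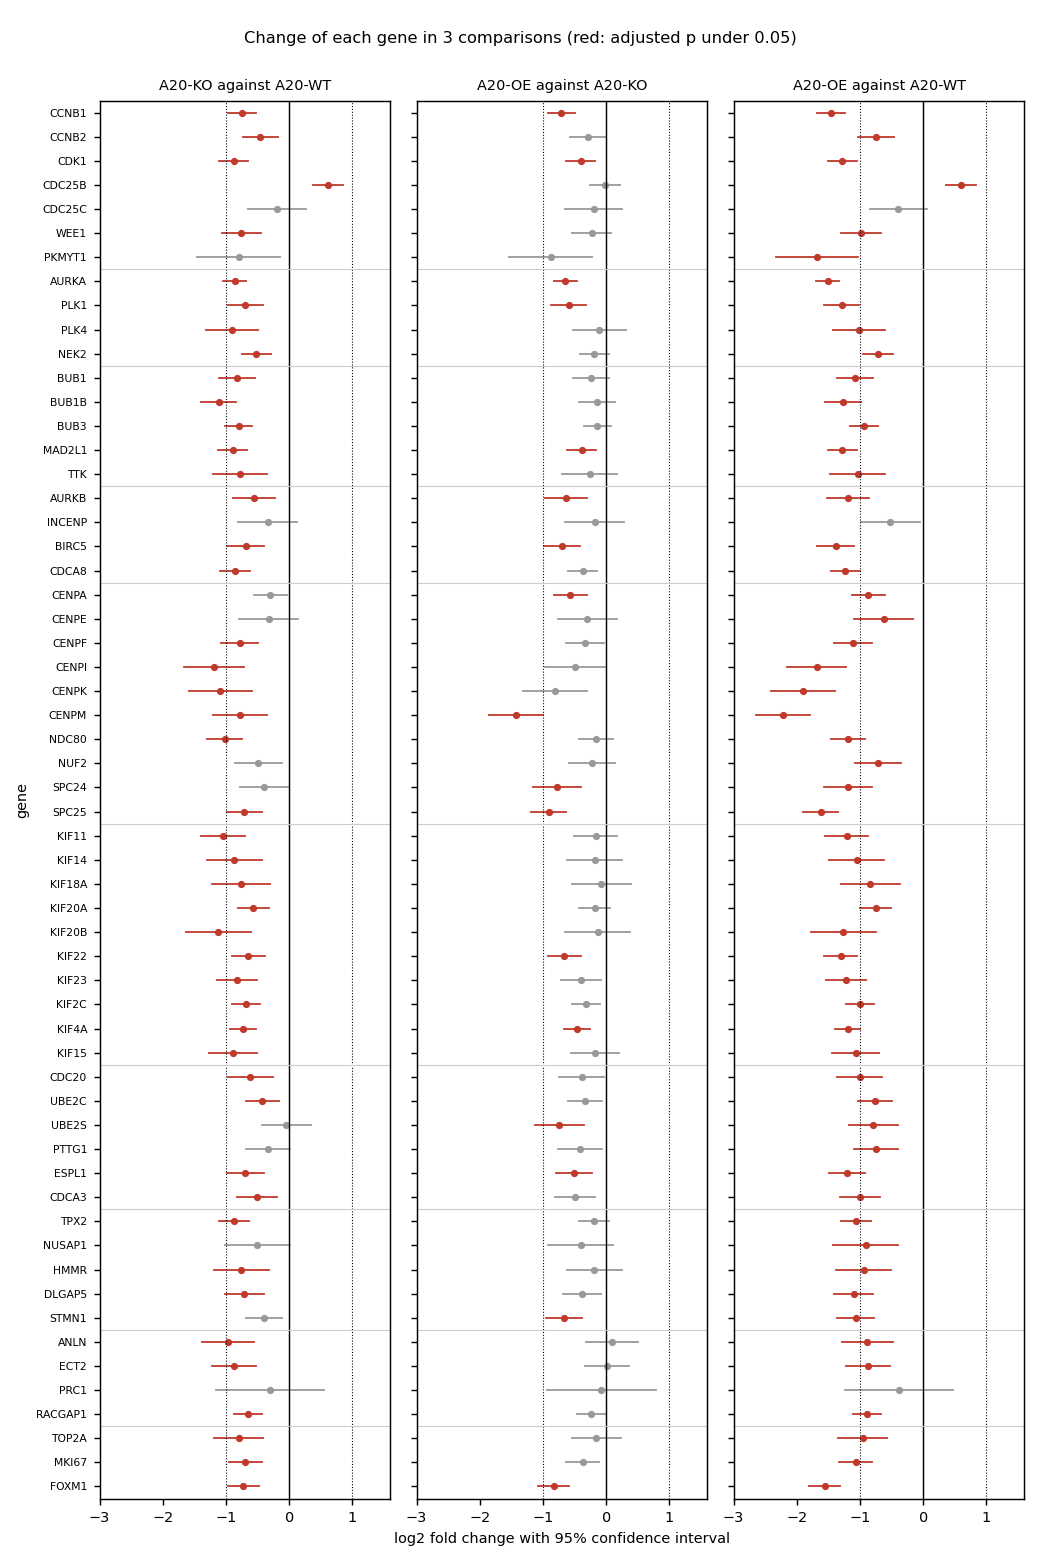
Log2 fold change (point) and 95% confidence interval (line) of each of the 58 genes in the 3 comparisons from limma, in red where the adjusted p is under 0.05 and in gray otherwise, with dotted lines at -1 and 1. Most points lie left of 0 in all 3 panels, with CDC25B right of 0 in both comparisons against A20-WT and CENPM farthest left in both comparisons of A20-OE.

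All 10 mitotic kinesins fell in A20-KO against A20-WT (10 of 10, log2 fold changes from -1.13 to -0.57) and in A20-OE against A20-WT (10 of 10), and 2 fell in A20-OE against A20-KO. KIF11, the motor that pushes spindle poles apart, was measured at 23.3, 17.6 and 16.3 FPKM in A20-WT. KIF11 was at 9.84, 9.92 and 7.70 FPKM in the libraries labelled A20-KO, and at 8.36, 8.38 and 7.50 FPKM in A20-OE. KIF11 fell by 1.04 on the log2 scale (SE 0.15, adjusted p = 0.0020) in A20-KO against A20-WT and missed the threshold in A20-OE against A20-KO (log2 difference -0.17, SE 0.15, adjusted p = 0.53) by limma. KIF15, which supports the same bipolar spindle, stood at 6.31, 4.68 and 3.88 FPKM in A20-WT. For KIF15 the libraries labelled A20-KO had 2.51, 2.81 and 2.43 FPKM and A20-OE had 2.30, 2.20 and 2.29 FPKM. KIF15 fell by 0.89 on the log2 scale (adjusted p = 0.0060) in A20-KO against A20-WT and missed the threshold in A20-OE against A20-KO (log2 difference -0.18, adjusted p = 0.54) by limma. KIF11 overlapped between A20-OE and the libraries labelled A20-KO, and KIF15 was separate by a narrow margin. KIF20B, a motor of late cytokinesis, had 14.5, 9.98 and 6.96 FPKM in A20-WT. KIF20B levels were 4.42, 5.14 and 4.13 FPKM where the label is A20-KO and 3.97, 4.46 and 3.94 FPKM in A20-OE. KIF20B fell by 1.13 on the log2 scale (SE 0.23, adjusted p = 0.0083) in A20-KO against A20-WT and missed the threshold in A20-OE against A20-KO (log2 difference -0.14, SE 0.23, adjusted p = 0.75) by limma. KIF14, a midbody motor, was measured at 9.53, 8.30 and 6.50 FPKM in A20-WT. KIF14 was at 4.38, 5.08 and 3.69 FPKM in the libraries labelled A20-KO, and at 4.06, 4.51 and 3.03 FPKM in A20-OE. KIF14 fell by 0.87 on the log2 scale (adjusted p = 0.013) in A20-KO against A20-WT and missed the threshold in A20-OE against A20-KO (log2 difference -0.18, adjusted p = 0.59) by limma. The A20-WT libraries were spread widely for KIF20B, with replicate 3 closest to the libraries labelled A20-KO and replicate 1 farthest from them, and KIF20B has a GC content of 34.2%, among the lowest of the set.

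The 2 kinesins that passed in A20-OE against A20-KO both act on chromosome arms. KIF22, a chromokinesin, stood at 32.3, 31.2 and 39.9 FPKM in A20-WT. For KIF22 the libraries labelled A20-KO had 22.5, 19.7 and 23.5 FPKM and A20-OE had 13.5, 13.2 and 14.6 FPKM. KIF22 fell by 0.65 on the log2 scale (SE 0.12, adjusted p = 0.0050) in A20-KO against A20-WT and fell by 0.66 on the log2 scale (SE 0.12, adjusted p = 0.013) in A20-OE against A20-KO by limma. KIF4A, a chromokinesin that also organizes the central spindle, had 16.4, 14.7 and 15.4 FPKM in A20-WT. KIF4A levels were 9.14, 9.65 and 9.07 FPKM where the label is A20-KO and 6.31, 6.60 and 7.24 FPKM in A20-OE. KIF4A fell by 0.73 on the log2 scale (SE 0.09, adjusted p = 0.00090) in A20-KO against A20-WT and fell by 0.46 on the log2 scale (SE 0.09, adjusted p = 0.018) in A20-OE against A20-KO by limma. KIF23, the motor of centralspindlin, was measured at 23.4, 16.6 and 15.9 FPKM in A20-WT. KIF23 was at 10.3, 10.5 and 10.01 FPKM in the libraries labelled A20-KO, and at 7.57, 7.80 and 7.99 FPKM in A20-OE. KIF23 fell by 0.83 on the log2 scale (adjusted p = 0.0036) in A20-KO against A20-WT and missed the threshold in A20-OE against A20-KO (log2 difference -0.40, adjusted p = 0.11) by limma. The groups were separate for KIF22, KIF4A and KIF23. Among 9 fits with 1 library left out the call was lost in A20-OE against A20-KO for KIF22 in 3 (adjusted p up to 0.063, without A20-OE replicate 1) and for KIF4A in 4 (adjusted p up to 0.085, without A20-OE replicate 1). KIF2C, which depolymerizes microtubules at faulty attachments, stood at 29, 29 and 34.4 FPKM in A20-WT. For KIF2C the libraries labelled A20-KO had 19.9, 18.8 and 18.7 FPKM and A20-OE had 14.8, 14.7 and 16.6 FPKM. KIF2C fell by 0.68 on the log2 scale (adjusted p = 0.0019) in A20-KO against A20-WT and missed the threshold in A20-OE against A20-KO (log2 difference -0.32, adjusted p = 0.079) by limma. KIF2C fell by 1.0 on the log2 scale (adjusted p = 0.00013) in A20-OE against A20-WT. KIF2C also descended in separate groups. KIF18A, needed for chromosome alignment, fell in A20-KO against A20-WT by 0.76 on the log2 scale (adjusted p = 0.028 by limma). KIF20A, which moves the passenger complex to the central spindle, fell there by 0.57 (adjusted p = 0.0065). The list of calls lost with 1 library left out does not cover KIF18A and KIF20A.

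Among the genes of anaphase, 4 of 6 fell in A20-KO against A20-WT, 2 in A20-OE against A20-KO and all 6 in A20-OE against A20-WT. CDC20, the coactivator of the anaphase-promoting complex, on chromosome 1 from 43358955 to 43363203, plus strand, had 139.8, 166 and 205 FPKM in A20-WT. CDC20 levels were 111, 99.1 and 120.5 FPKM where the label is A20-KO and 81, 76 and 96.3 FPKM in A20-OE. CDC20 fell by 0.62 on the log2 scale (adjusted p = 0.022) in A20-KO against A20-WT and missed the threshold in A20-OE against A20-KO (log2 difference -0.39, adjusted p = 0.16) by limma. CDC20 fell by 1.0 on the log2 scale (adjusted p = 0.0015) in A20-OE against A20-WT. UBE2C, the enzyme that starts its ubiquitin chains, was measured at 101, 87.5 and 99.1 FPKM in A20-WT. UBE2C was at 65.7, 68 and 80.6 FPKM in the libraries labelled A20-KO, and at 55.7, 51.4 and 62.3 FPKM in A20-OE. UBE2C fell by 0.43 on the log2 scale (adjusted p = 0.029) in A20-KO against A20-WT and missed the threshold in A20-OE against A20-KO (log2 difference -0.34, adjusted p = 0.11) by limma. ESPL1, the protease separase, stood at 11.9, 15 and 15.8 FPKM in A20-WT. For ESPL1 the libraries labelled A20-KO had 8.65, 9.16 and 8.30 FPKM and A20-OE had 5.60, 6.84 and 5.84 FPKM. ESPL1 fell by 0.69 on the log2 scale (adjusted p = 0.0056) in A20-KO against A20-WT and fell by 0.51 on the log2 scale (adjusted p = 0.043) in A20-OE against A20-KO by limma. CDCA3, which promotes degradation of WEE1, had 8.39, 7.11 and 7.82 FPKM in A20-WT. CDCA3 levels were 4.85, 4.98 and 6.58 FPKM where the label is A20-KO and 3.58, 3.66 and 4.29 FPKM in A20-OE. CDCA3 fell by 0.51 on the log2 scale (adjusted p = 0.030) in A20-KO against A20-WT and missed the threshold in A20-OE against A20-KO (log2 difference -0.49, adjusted p = 0.064) by limma. For CDC20, UBE2C, ESPL1 and CDCA3 the 3 groups were separate. When each of the 9 libraries was left out in turn, the call was lost in A20-KO against A20-WT for CDC20 in 3 (adjusted p up to 0.073, without A20-KO replicate 2), for UBE2C in 5 (adjusted p up to 0.11, without A20-KO replicate 1) and for CDCA3 in 4 (adjusted p up to 0.11, without A20-KO replicate 1) and in A20-OE against A20-KO for ESPL1 in 7 (adjusted p up to 0.15, without A20-OE replicate 1). UBE2S, which extends the chains that UBE2C starts, had a log2 fold change of -0.05 in A20-KO against A20-WT (adjusted p = 0.89 by limma) and fell by 0.74 in A20-OE against A20-KO (adjusted p = 0.032). PTTG1, the securin that holds separase in check, fell in A20-OE against A20-WT by 0.74 on the log2 scale (adjusted p = 0.0060 by limma). It passed in neither step alone. Whether the calls of UBE2S and PTTG1 held with 1 library left out is not given here.

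Spindle assembly factors fell in 3 of 5 cases in A20-KO against A20-WT, 1 in A20-OE against A20-KO and 5 in A20-OE against A20-WT. The 1 call in A20-OE against A20-KO was not tested against the 4.54% of all genes called lower there. TPX2, which activates AURKA on spindle microtubules, was measured at 98.4, 79.7 and 81.7 FPKM in A20-WT. TPX2 was at 46, 50.6 and 45.1 FPKM in the libraries labelled A20-KO, and at 39.3, 40.8 and 43.5 FPKM in A20-OE. TPX2 fell by 0.87 on the log2 scale (SE 0.10, adjusted p = 0.00083) in A20-KO against A20-WT and missed the threshold in A20-OE against A20-KO (log2 difference -0.19, SE 0.10, adjusted p = 0.29) by limma. DLGAP5, a kinetochore-fiber protein, stood at 29.7, 24.4 and 21 FPKM in A20-WT. For DLGAP5 the libraries labelled A20-KO had 15.1, 16.4 and 13.8 FPKM and A20-OE had 10.6, 11.4 and 12.7 FPKM. DLGAP5 fell by 0.71 on the log2 scale (adjusted p = 0.0063) in A20-KO against A20-WT and missed the threshold in A20-OE against A20-KO (log2 difference -0.38, adjusted p = 0.12) by limma. HMMR, a spindle-pole adaptor, had 21.3, 14.4 and 11.6 FPKM in A20-WT. HMMR levels were 8.83, 9.21 and 8.88 FPKM where the label is A20-KO and 7.11, 7.96 and 8.62 FPKM in A20-OE. HMMR fell by 0.76 on the log2 scale (adjusted p = 0.022) in A20-KO against A20-WT and missed the threshold in A20-OE against A20-KO (log2 difference -0.19, adjusted p = 0.59) by limma. STMN1, stathmin, which destabilizes microtubules, was measured at 53.6, 45.9 and 52.5 FPKM in A20-WT. STMN1 was at 34.6, 37 and 43.9 FPKM in the libraries labelled A20-KO, and at 22, 22.8 and 27.7 FPKM in A20-OE. STMN1 missed the threshold in A20-KO against A20-WT (log2 difference -0.40, adjusted p = 0.053) and fell by 0.67 on the log2 scale (adjusted p = 0.017) in A20-OE against A20-KO by limma. STMN1 fell by 1.07 on the log2 scale (adjusted p = 0.00035) in A20-OE against A20-WT. The groups descended without overlap for TPX2, DLGAP5, HMMR and STMN1. STMN1 was the 1 gene of these that passed in A20-OE against A20-KO and not in A20-KO against A20-WT, a difference between comparisons that was not tested. As libraries were left out 1 by 1 in 9 fits, the call was lost in A20-KO against A20-WT for HMMR in 4 (adjusted p up to 0.068, without A20-KO replicate 1) and in A20-OE against A20-KO for STMN1 in 2 (adjusted p up to 0.084, without A20-OE replicate 1).

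NUSAP1 and PRC1, both microtubule bundlers, share most of their exonic bases with another gene. In GENCODE 29, 62.2% of the exonic bases of NUSAP1 are also exonic in AC087721.2 and 57.6% of those of PRC1 in AC068831.7, each on the same strand, and reads on shared bases may go uncounted or to the other gene. They were the 2 genes of the 58 with over 50% of their bases shared. AC087721.2 is listed at 0 in every library, and AC068831.7 ran from 0.144 to 0.823 FPKM. PRC1, which crosslinks the central spindle, stood at 0.102, 0.181 and 0.246 FPKM in A20-WT. For PRC1 the libraries labelled A20-KO had 0.186, 0.0736 and 0.109 FPKM and A20-OE had 0.163, 0.0656 and 0.102 FPKM. With 9 to 34 reads per library PRC1 overlapped among all 3 groups and passed in no comparison (adjusted p = 0.61, 0.93 and 0.49 by limma), so that no change of it was detectable here. NUSAP1, at 100 to 277 reads per library, fell by 0.91 on the log2 scale in A20-OE against A20-WT (adjusted p = 0.015). Both were pointed out after their values were seen.

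The cytokinesis genes fell between A20-WT and the other groups. Of 4, 3 fell in A20-KO against A20-WT and 3 in A20-OE against A20-WT. In A20-OE against A20-KO none fell by limma, 1 did at an unadjusted p under 0.05 and 0 did by limma-voom. Over all genes tested 4.54% were called lower there by limma, so that 0 of 4 is near that share and is no result about these genes. ANLN, the contractile-ring scaffold anillin, had 40.6, 30.4 and 26.5 FPKM in A20-WT. ANLN levels were 18.3, 18 and 13 FPKM where the label is A20-KO and 16.4, 19.1 and 16.5 FPKM in A20-OE. ANLN fell by 0.97 on the log2 scale (SE 0.18, adjusted p = 0.0057) in A20-KO against A20-WT and missed the threshold in A20-OE against A20-KO (log2 difference 0.09, SE 0.18, adjusted p = 0.80) by limma. ECT2, which activates RhoA at the cell equator, was measured at 31, 26 and 22.9 FPKM in A20-WT. ECT2 was at 15.4, 16.2 and 11.7 FPKM in the libraries labelled A20-KO, and at 14.3, 15.7 and 13.2 FPKM in A20-OE. ECT2 fell by 0.88 on the log2 scale (SE 0.15, adjusted p = 0.0043) in A20-KO against A20-WT and missed the threshold in A20-OE against A20-KO (log2 difference 0.01, SE 0.15, adjusted p = 0.99) by limma. Both groups below A20-WT overlapped for ANLN and ECT2, and their 95% confidence intervals in A20-OE against A20-KO ran from -0.32 to 0.50 for ANLN and from -0.34 to 0.36 for ECT2. RACGAP1, the partner of KIF23 in centralspindlin, stood at 30.9, 28.9 and 29.7 FPKM in A20-WT. For RACGAP1 the libraries labelled A20-KO had 20.4, 20.2 and 16.6 FPKM and A20-OE had 16.6, 15.9 and 15.6 FPKM. RACGAP1 fell by 0.65 on the log2 scale (adjusted p = 0.0023) in A20-KO against A20-WT and missed the threshold in A20-OE against A20-KO (log2 difference -0.24, adjusted p = 0.16) by limma. At 16.6, 15.9 and 15.6 FPKM the A20-OE libraries touched the lowest of the libraries labelled A20-KO.

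TOP2A, MKI67 and FOXM1 all fell in A20-KO against A20-WT and in A20-OE against A20-WT (3 of 3 in each), and FOXM1 also in A20-OE against A20-KO. FOXM1, the transcription factor that activates many of the other genes in G2, on chromosome 12 from 2857681 to 2877155, minus strand, had 23.7, 27.5 and 30.1 FPKM in A20-WT. FOXM1 levels were 16, 17.1 and 15.5 FPKM where the label is A20-KO and 8.97, 8.45 and 9.84 FPKM in A20-OE. FOXM1 fell by 0.73 on the log2 scale (SE 0.11, adjusted p = 0.0022) in A20-KO against A20-WT and fell by 0.83 on the log2 scale (SE 0.11, adjusted p = 0.0042) in A20-OE against A20-KO by limma. Its fitted level in A20-OE was 0.339 of that in A20-WT. MKI67, the proliferation antigen Ki-67 that coats mitotic chromosomes, was measured at 39.2, 40.4 and 40.9 FPKM in A20-WT. MKI67 was at 22.3, 27.5 and 24.8 FPKM in the libraries labelled A20-KO, and at 17.7, 22.2 and 17.6 FPKM in A20-OE. MKI67 fell by 0.69 on the log2 scale (SE 0.12, adjusted p = 0.0037) in A20-KO against A20-WT and missed the threshold in A20-OE against A20-KO (log2 difference -0.38, SE 0.12, adjusted p = 0.081) by limma. TOP2A, which untangles sister chromatids, stood at 47.7, 37.2 and 32.1 FPKM in A20-WT. For TOP2A the libraries labelled A20-KO had 23.1, 25.9 and 17.9 FPKM and A20-OE had 18.9, 21.2 and 19.3 FPKM. TOP2A fell by 0.80 on the log2 scale (SE 0.17, adjusted p = 0.010) in A20-KO against A20-WT and missed the threshold in A20-OE against A20-KO (log2 difference -0.16, SE 0.17, adjusted p = 0.61) by limma. The groups were separate for FOXM1 and MKI67, while TOP2A overlapped between A20-OE and the libraries labelled A20-KO. The MKI67 margin was narrow, with 22.3 FPKM in the lowest library labelled A20-KO and 22.2 in the highest of A20-OE.

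Over the 58 genes, the GC content of the longest transcript ran from 32.9% to 66.2% with a median of 43.2%, against 48.8% over all genes tested. Pearson's r of the log2 fold change with GC content over the 58 was 0.44 in A20-KO against A20-WT, -0.46 in A20-OE against A20-KO and 0.01 in A20-OE against A20-WT. These are descriptions across genes, which share the same libraries. The ratio of A20-WT replicate 1 to A20-WT replicate 3 was related to GC content too, with r of -0.87 over the 58 and -0.38 over all genes tested, which is a difference within 1 group. After the values were corrected for GC content in 50 bins, the r came to -0.18, -0.12 and -0.19, 47, 32 and 55 of the 58 fell in the 3 comparisons, and the medians were -0.62, -0.39 and -1.0. The genes past both thresholds in A20-KO against A20-WT then numbered 2 in place of 6, and 3 without A20-WT replicate 1 or 10 without A20-WT replicate 3.

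The other genes of the pathway were taken from 7 lists with 102 genes, none of them in the set of 58. Of these, 63 fell and 2 rose in A20-KO against A20-WT, 17 fell and 2 rose in A20-OE against A20-KO, and 73 fell and 3 rose in A20-OE against A20-WT. Over all genes tested, 11.0, 4.54 and 15.4% were called lower and 11.3, 4.43 and 15.7% higher in the same order. The 1 fall each in A20-OE against A20-KO of the cohesin and phosphatase lists described next is near that share and is no result about those lists. The same holds for the absence of falls there in the list of the anaphase-promoting complex. Of 28 further kinetochore genes, 20, 6 and 23 fell in the 3 comparisons in that order. ZWINT, which links the kinetochore to the checkpoint, had 34, 46.6 and 46.6 FPKM in A20-WT. ZWINT levels were 12.3, 12.8 and 13.3 FPKM where the label is A20-KO and 6.91, 6.66 and 6.94 FPKM in A20-OE. ZWINT fell by 1.71 on the log2 scale (adjusted p = 0.00013) in A20-KO against A20-WT and fell by 0.90 on the log2 scale (adjusted p = 0.0053) in A20-OE against A20-KO by limma. ZWINT fell by 2.60 on the log2 scale (adjusted p = 5.1e-06) in A20-OE against A20-WT. ZWINT was the largest fall of that list. The largest called rise was that of CENPC, which anchors the kinetochore to CENPA chromatin. CENPC rose by 0.65 on the log2 scale (adjusted p = 0.045 by limma) in A20-OE against A20-KO. It missed the threshold in A20-KO against A20-WT (log2 difference -0.45, adjusted p = 0.085) and in A20-OE against A20-WT (0.20, adjusted p = 0.41). The 8 condensin genes, which compact mitotic chromosomes, fell in 5, 4 and 8 cases, and NCAPH fell by 1.61 on the log2 scale (adjusted p = 2.6e-05) in A20-OE against A20-WT. Of 12 genes of cohesin and its protectors, 8, 1 and 7 fell, with the largest fall for CDCA5 (sororin), which fell by 1.66 on the log2 scale (adjusted p = 1.7e-05) in A20-OE against A20-WT. Of 15 spindle and centrosome genes, 11, 3 and 12 fell, and the kinesin KIF18B fell by 1.74 on the log2 scale (adjusted p = 2.0e-05) in A20-OE against A20-WT. The 16 subunits and regulators of the anaphase-promoting complex fell in 6 cases in A20-KO against A20-WT, in none in A20-OE against A20-KO by limma (2 at an unadjusted p under 0.05 and 0 by limma-voom) and in 10 in A20-OE against A20-WT. Its inhibitor FBXO5 fell by 1.36 on the log2 scale (adjusted p = 0.00023) in A20-OE against A20-WT, and ANAPC16 rose by 0.47 on the log2 scale (adjusted p = 0.047) in A20-OE against A20-WT. Among 9 genes of the mitotic exit phosphatases, 4, 1 and 4 fell, and CDC14A fell by 1.16 on the log2 scale (adjusted p = 0.0028) in A20-OE against A20-WT.

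Genes of transcription in G2 and mitosis fell more often than they rose. Of 14 genes of a list that holds the DREAM and MuvB complexes, their partners and the cyclins CCNA2 and CCNF, 9 fell and 1 rose in A20-KO against A20-WT, 2 fell and 1 rose in A20-OE against A20-KO, and 9 fell and 2 rose in A20-OE against A20-WT, the rises being near the shares of all genes given above. MYBL2, the activating partner of MuvB, was measured at 64.1, 77.9 and 96.7 FPKM in A20-WT. MYBL2 was at 38.8, 39.4 and 44.3 FPKM in the libraries labelled A20-KO, and at 18.6, 17.6 and 20.6 FPKM in A20-OE. MYBL2 fell by 0.94 on the log2 scale (SE 0.15, adjusted p = 0.0025) in A20-KO against A20-WT and fell by 1.11 on the log2 scale (SE 0.15, adjusted p = 0.0042) in A20-OE against A20-KO by limma. RBL2, the p130 pocket protein of the repressing DREAM complex, stood at 4.39, 4.36 and 3.62 FPKM in A20-WT. For RBL2 the libraries labelled A20-KO had 4.92, 5.36 and 3.57 FPKM and A20-OE had 7.43, 8.33 and 6.76 FPKM. RBL2 missed the threshold in A20-KO against A20-WT (log2 difference 0.14, SE 0.16, adjusted p = 0.58) and rose by 0.70 on the log2 scale (SE 0.16, adjusted p = 0.033) in A20-OE against A20-KO by limma. The groups of MYBL2 descended without overlap, and the A20-OE libraries of RBL2 all stood above the other 6.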

How the data were processed

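Poly-A RNA of 9 libraries (3 per group) was sequenced as paired-end reads by the authors, who aligned with HISAT2 2.0.5 and counted with featureCounts 1.5.0-p3 (submitters' processing notes), converted counts to the deposited FPKM and tested with DESeq2, which was not run here. The genome build is not given in the sources used here. All 58735 gene identifiers and coordinates match GENCODE 29 (GRCh38). Whether counting used strand is not stated.

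The 21636 genes that averaged 0.1 FPKM or more, all 58 members among them, were tested with limma 3.58.1 in R 4.3.3, with a trended variance and all 3 groups in one fit of log2(FPKM + 0.1), and Benjamini-Hochberg adjustment over all genes. The log2 scale with this pseudocount understates changes of low genes. The second threshold was an absolute log2 fold change above 1, which matches the fold change given in the methods of the study. The results text of the paper words its cut-off for the knockout genes differently, as a log-fold. Reads were recovered by dividing FPKM times gene length by the value of 1 read. Their total was 0.950 (A20-WT replicate 2) to 1.066 (A20-OE replicate 3) of the library depth that this value implies. The FPKM are scaled to that implied depth, which limma-voom used as well. Of the nonzero values below a set number of reads, 100% were whole within 0.1, and higher values were not checked. The recovered reads were used for limma-voom. Intervals cover the spread between libraries, and the reads carry no molecular identifiers. The scripts were tested on simulated data.

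The members, role groups, pathway lists, motifs and alternatives were chosen with earlier results of these data known, and their counts and medians are descriptions. Values in every library are given for members past both thresholds, for up to 4 per role group with the smallest adjusted p, for CCNB1, CDK1, PLK1, AURKA, AURKB, TOP2A, MKI67 and FOXM1, and for members with a mean under 1 FPKM. Outside this rule, CDC25B was added after its values were seen. Among members, calls lost with 1 library left out are listed only for genes under this rule, not for CDC25B or the others. In each pathway list the largest called rise and fall are named. Alternatives were pseudocounts of 1 and 0.01, no filter or a filter at 1 FPKM, scaling by median of ratios or without mitochondrial genes, limma-voom, the replicate block, a fit of 2 groups alone, an untrended variance, a GC content correction with and without the block, and each library left out.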

Additional observations from a re-analysis of the deposited data

How the results depend on the processing

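In all 21 alternatives the median of the 58 genes stayed below 0 in each comparison, and the counts in A20-OE against A20-WT stayed within 1.5 times. The count lower in A20-OE against A20-KO was 32 with the GC content correction, 39 with that correction and the replicate block and 10 with no variance trend, in place of 17. With the GC content correction, alone and with the replicate block, 2 genes passed both thresholds in A20-KO against A20-WT in place of 6 and 2 in A20-OE against A20-KO in place of 1, and the medians were -0.62 and -0.39 in place of -0.73 and -0.33. A pseudocount of 1 left 1 gene past both thresholds in A20-KO against A20-WT. With 1 library left out, the count lower ran from 36 to 46 in A20-KO against A20-WT, 5 to 23 in A20-OE against A20-KO and 51 to 54 in A20-OE against A20-WT, and that past both thresholds from 3 to 10, 1 to 1 and 27 to 38. The TNFAIP3 rise in A20-KO against A20-WT lost its call in a fit on only the 2 groups compared (log2 fold change 0.95, adjusted p = 0.083 by limma) and in 3 of the 9 fits with 1 library left out, without A20-KO replicate 1 (adjusted p = 0.070), A20-KO replicate 2 (adjusted p = 0.057) or A20-WT replicate 2 (adjusted p = 0.054); its log2 fold change over those 9 fits ran from 0.75 to 1.25. The cause of these differences was not tested. Libraries of different groups with the same replicate number had deviations correlated from -0.03 to 0.12 across genes, against -0.13 to 0.07 for other numbers, so that the numbers were not taken to pair them. With the replicate block, 49, 23 and 54 of the 58 were lower in the 3 comparisons in place of 45, 17 and 54. For the 47 genes given in every library by the stated rule, 2769 values over all comparisons and alternatives kept their direction and side of the threshold, 102 lost the call and 76 gained it. CDC25B is not among those 47. Another 11 changed sign, all of them in A20-OE against A20-KO for genes near 0 that passed in no such fit. PLK4 had 0.0110 without A20-KO replicate 2, and its values ran from -0.22 to 0.01 with 1 library left out. ANLN had -0.0296 with the GC content correction, with and without the replicate block and -0.07 without A20-KO replicate 3, and its values ran from -0.07 to 0.18 with 1 library left out. ECT2 had -0.0012 with scaling without mitochondrial genes, -0.14 with the GC content correction, with and without the replicate block, -0.14 without A20-KO replicate 3 and -0.05 without A20-OE replicate 2, and its values ran from -0.14 to 0.10 with 1 library left out. PRC1 had 0.12 without A20-KO replicate 1 and 0.08 without A20-OE replicate 2, and its values ran from -0.25 to 0.12 with 1 library left out.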
